A study of Mus musculus with 16 samples.

Results

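Whole hearts of 8-week-old mice that lack Armh4 throughout the body (KO, 4 hearts) were compared with hearts of 8-week-old wild-type mice (WT, 4 hearts) across all genes, by bulk RNA sequencing. These are 8 of the 16 libraries of a study on Armh4 and ageing, whose other 8 libraries come from WT and KO mice of 25 months, and those serve here only as values set beside the young ones. The KO carries a systemic deletion, the healthy mice are given as C57BL/6J, and all animals had normal food and a 12-hour light cycle, per the labels. How the gene was deleted, the sex, whether KO and WT mice were littermates, and the hour at which hearts were taken are not given in the sources used here. The hearts are described as independent biological replicates, and each is named by its animal number: KO 27, 31, 38 and 53, and WT 29, 34, 39 and 42. Sample titles give WO in place of WT for the young WT hearts, and the genotype label was followed. Values of single hearts are always listed in those 2 orders.

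Armh4 (armadillo-like helical domain containing 4) encodes a single-pass membrane protein. It has been reported to bind the interleukin-6 family co-receptor gp130, encoded by Il6st, and to dampen STAT3 signalling, and to bind RICTOR and dampen signalling of the mTOR complex that phosphorylates AKT. The mTOR pathway couples growth of heart muscle to nutrients, and STAT3 takes part in the response of heart muscle and vessels to stress. Genes of both pathways were therefore listed, beside lists for energy use, stress responses, vessels, matrix and the kinds of cell found in whole heart tissue.

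The 8 young libraries held 11858630 to 12725001 counts, and any 2 hearts of 1 genotype differed by more than the noise of counting (chi-square per degree of freedom of at least 3.8). On the first principal component, with 24.8% of the variance of the young hearts, the KO hearts lay from -24.5 to -2.91 and the WT hearts from 3.23 to 24.1. The heart muscle genes Myh6 and Tnnt2 were abundant in every heart, and T-cell Cd3e had at most 4 counts. The Y-chromosome genes Ddx3y, Eif2s3y, Kdm5d and Uty were expressed in every heart, with 18.1 CPM (counts per 1000000 counts of the library, scaled with TMM factors) as the lowest Kdm5d value, and Xist is not in the table used here. Nnt, part of which is deleted in the C57BL/6J substrain, was counted in every heart (596 to 1091 CPM in KO, 542 to 774 CPM in WT).

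Armh4 itself separated the genotypes in every heart. Its raw counts were 5, 6, 1 and 6 in the KO hearts and 158, 175, 203 and 211 in the WT hearts. On the CPM scale these are 0.42, 0.494, 0.0825 and 0.5 in KO and 12.7, 14.1, 17.5 and 17.7 in WT, with no overlap. Per transcript length the WT level was 5.09 ± 0.691 FPKM (SD, n = 4), and the KO level was 0.125 ± 0.065 FPKM (SD, n = 4). The gene fell by 5.33 ± 0.25 (SE) on the log2 scale (adjusted p = 3.0e-10), the largest change of any gene past the test. Adjusted p-values here and below are from the quasi-likelihood F test of edgeR over 13373 genes with Benjamini-Hochberg adjustment, and the words rose, fell and changed are kept for values under 0.05. The ± beside a log2 fold change is its standard error.

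Beyond Armh4, few genes passed the test between the genotypes at 8 weeks, and most of those that passed were lower in KO. In all, 43 of 13373 genes passed (0.322%), of which 8 rose (0.0598%) and 35 fell (0.262%). By more than 2-fold changed 7 of the 43: Armh4, Agt, Tfrc, Rtn4r, Tac1, Zbed6 and Fkbp5, all lower in KO. The median log2 fold change of all tested genes was 0.00487, and 51.2% of them lay above 0. At an unadjusted p under 0.05 there were 1492 genes (11.2%), the share to set beside the list counts at that threshold below. For 1135 genes (8.49%) the hearts of the groups did not overlap, 543 higher in KO (4.06%) and 592 lower (4.43%). All 43 changed genes were among these. As many as 21 of the 43 had adjusted p-values between 0.04 and 0.05, so the edge of the list is not sharp, and 82 genes had a value under 0.1.

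**Figure D1:**
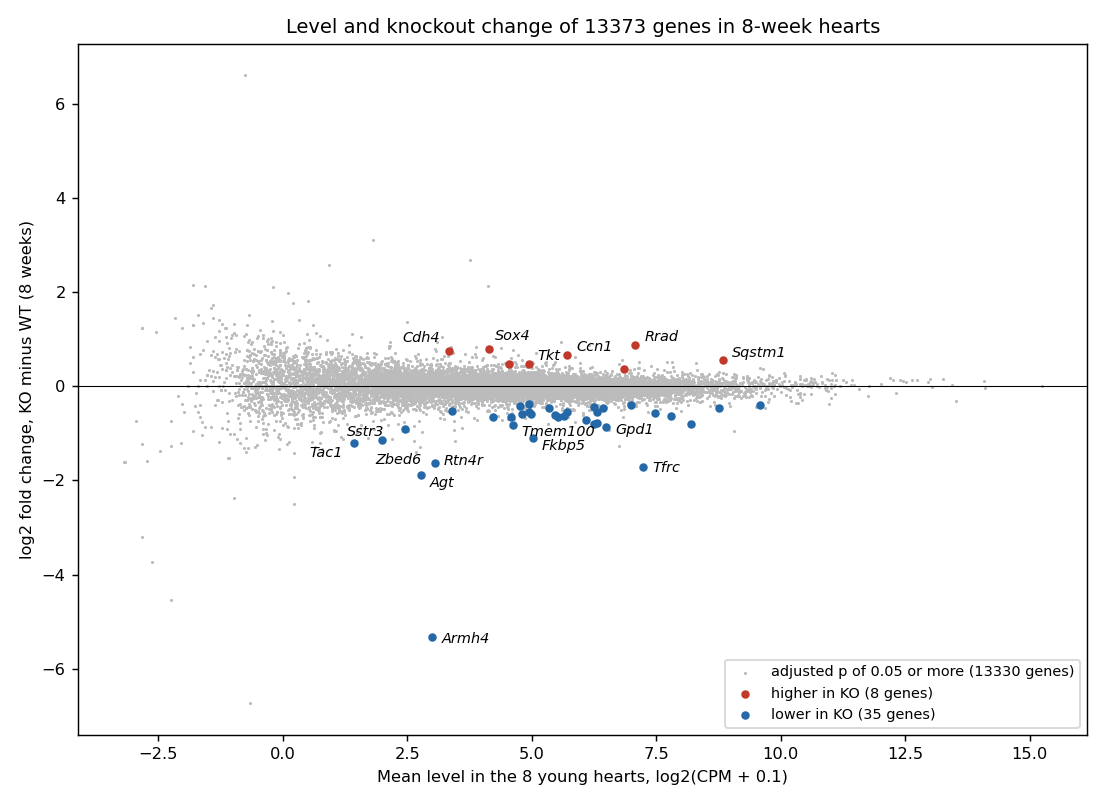
Each point is 1 of the 13373 genes tested, with its mean level in the 8 young hearts (x axis, log2 of CPM + 0.1) and its log2 fold change between KO and WT (y axis). The 8 genes that rose are red and the 35 that fell are blue; among the genes past the test Armh4 lies lowest at -5.33, and Agt, Tfrc and Rtn4r follow between -1.88 and -1.64.

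The number of genes that passed varied with the libraries fitted. Leaving out 1 heart at a time left 3 genes without KO 27, 4 without KO 31, 6 without KO 38, 21 without KO 53, 7 without WT 29, 17 without WT 34, 4 without WT 39 and 7 without WT 42. The fit shares 1 estimate of the spread with the 8 aged hearts, some of which varied more. Fitted on the 8 young libraries alone, 113 genes passed (0.845%), 29 higher (0.217%) and 84 lower (0.628%) in KO, 42 of the 43 among them, and 20 of the 43 still passed in that fit whichever heart was left out. Armh4, Rrad and Gpd1 kept their calls in all 8 fits without 1 heart and in all 11 other alternatives. Counts from the fit of the young libraries alone are given below beside each list where they differ.

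**Figure D2:**
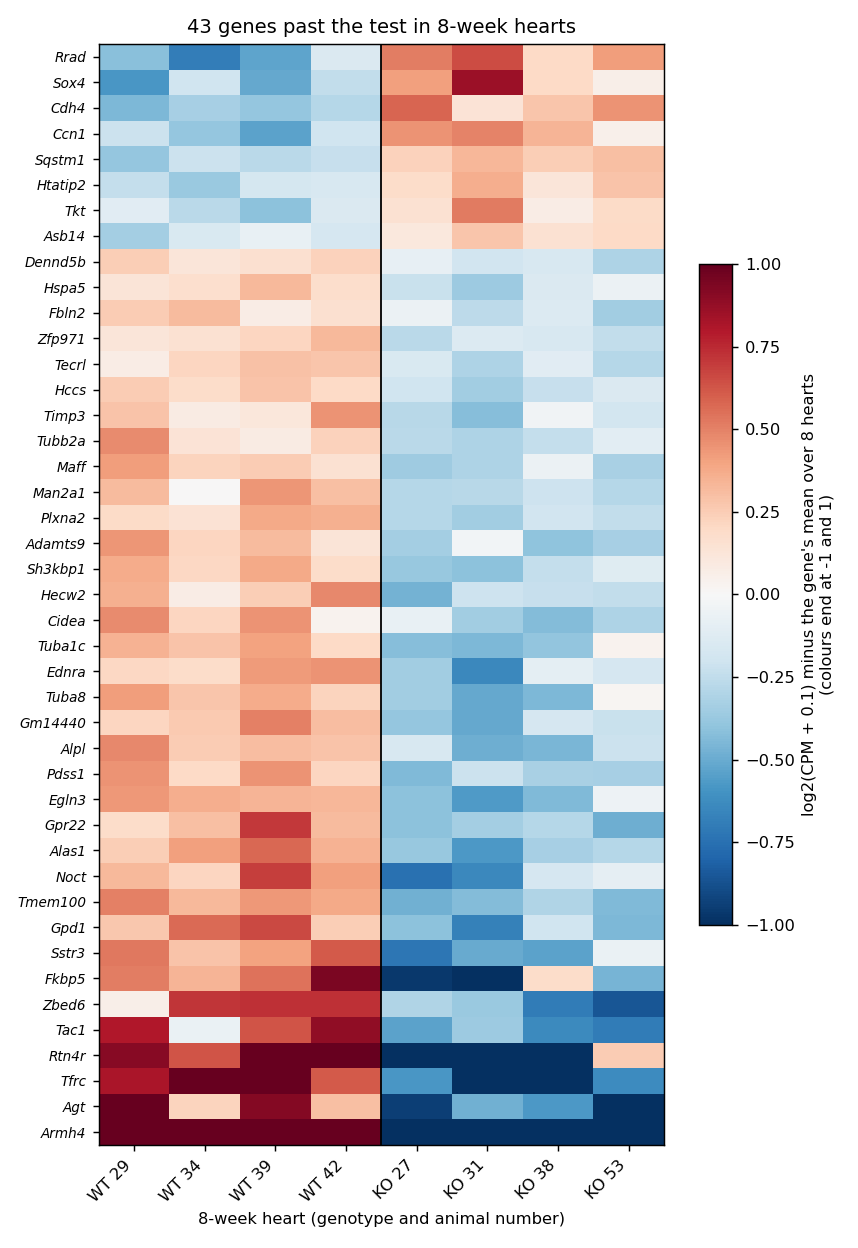
Rows are the 43 genes past the test, ordered by log2 fold change, and columns are the 8 young hearts (genotype and animal number). Colour is log2(CPM + 0.1) minus the gene's mean over the 8 hearts, with colours ending at -1 and 1. The 8 genes at the top are higher in each KO heart than in any WT heart, and the 35 below are lower in each KO heart.

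The clearest rise was in a gene that limits calcium entry into heart muscle. Rrad encodes a small GTPase that binds the beta subunit of the L-type calcium channel and restrains it. It stood at 183, 201, 147 and 171 CPM in the KO hearts and at 95.6, 79.4, 88.8 and 116 CPM in the WT hearts. Each KO heart was above each WT heart, and Rrad rose (log2 fold change 0.89 ± 0.11, adjusted p = 0.00174). Its highest adjusted p with 1 heart left out was 0.0152. It was the only one of 34 ion channel and calcium handling genes to pass. The list had a median of -0.02, with 4 members higher in KO and 2 lower without overlap, against 4.06% and 4.43% of all genes. Of the others, Casq2, the calcium buffer of the sarcoplasmic reticulum, stood at -0.36 ± 0.11 (unadjusted p = 0.00362) and Kcnip2, a subunit of the transient outward potassium channel, at 0.52 ± 0.18 (unadjusted p = 0.00939). In the young libraries alone Kcnip2 passed too (adjusted p = 0.0299, at most 0.0877 with 1 heart left out). Tecrl, whose loss causes an inherited catecholamine-sensitive arrhythmia, fell from between 79.5 and 92.4 CPM in WT to between 60.9 and 69.7 CPM in KO (log2 fold change -0.43 ± 0.09, adjusted p = 0.0497).

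Lipid handling gave the clearest fall after Armh4. Gpd1, the cytosolic glycerol-3-phosphate dehydrogenase that links glycolysis to the glycerol backbone of triglycerides, stood at 64.2, 53.3, 74.4 and 62.4 CPM in KO and 103, 126, 134 and 101 CPM in WT. The groups did not overlap, and Gpd1 fell (log2 fold change -0.87 ± 0.12, adjusted p = 0.00238; at most 0.0172 with 1 heart left out). Cidea, a lipid droplet protein, stood at 29.3, 24.1, 22.7 and 24.9 CPM in KO and 42.7, 35.6, 41.9 and 31.5 CPM in WT and fell (log2 fold change -0.59 ± 0.12, adjusted p = 0.0497). They were the 2 of 26 triglyceride and lipid storage genes to pass, where the list's median was -0.08. Gk, glycerol kinase, stood at -0.35 ± 0.11 and G0s2, an inhibitor of triglyceride breakdown, at -0.46 ± 0.17; neither passed (adjusted p = 0.249 and 0.319).

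Fuel-burning pathways held no gene past the test in the fit of all libraries. None of 36 fatty acid oxidation genes passed in edgeR (1 in DESeq2), and the median was -0.01. At an unadjusted p under 0.05 were 6 of the 36, against 11.2% of all genes. The carnitine carrier Slc25a20 (-0.33 ± 0.09, unadjusted p = 0.00218) and the coactivator Ppargc1a (-0.41 ± 0.13, unadjusted p = 0.00632) had the smallest values. None of 32 glycolysis genes passed in edgeR (1 in DESeq2), and 4 had an unadjusted p under 0.05, against 11.2% of all genes. These 4 were all lower in KO, namely hexokinase Hk1 (-0.47), the lactate carrier Slc16a1 (-0.34), Pgam1 (-0.43) and Pfkp (-0.35). In the young libraries alone Hk1 stood at 191, 191, 209.9 and 209.8 CPM in KO and 255, 277, 302 and 273 CPM in WT and passed (adjusted p = 0.00984, at most 0.047 with 1 heart left out), as did Pfkp (adjusted p = 0.0299, at most 0.136). Of 86 nuclear-encoded subunits of the respiratory chain, 82 lay above 0 with a median of 0.12, against 51.2% above 0 among all genes. None passed in edgeR or DESeq2, and 14 had an unadjusted p under 0.05, all higher in KO. Over all genes that share was 11.2%, in both directions together. Of the 86, 2 were higher and 1 lower without overlap, against 4.06% and 4.43% of all genes. Their summed level was 59050, 65620, 60460 and 67740 CPM in KO and 60580, 54450, 60590 and 58180 CPM in WT, with overlap. Sdhb, a subunit of complex II, had the smallest p (0.22 ± 0.08, unadjusted p = 0.00897), and Uqcr10 of complex III stood at 0.25 ± 0.10 (unadjusted p = 0.0192).

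Iron uptake and haem synthesis held 3 genes that fell. Tfrc encodes the transferrin receptor, which brings iron into cells, Alas1 the first enzyme of haem synthesis, and Hccs the enzyme that attaches haem to cytochrome c. Tfrc stood at 84.0, 57.3, 58.7 and 81.3 CPM in KO and 222, 257, 251 and 193 CPM in WT. The highest KO heart was far under the lowest WT heart, and the gene fell (log2 fold change -1.72 ± 0.31, adjusted p = 0.0321). Alas1 stood at 216, 189, 223 and 231 CPM in KO and 334, 375, 419 and 359 CPM in WT (log2 fold change -0.79 ± 0.16, adjusted p = 0.0497). Hccs stood at 66.5 to 76.6 CPM in KO and 96.3 to 103 CPM in WT (log2 fold change -0.46 ± 0.09, adjusted p = 0.0393). All 3 lost the call when any 1 heart was left out of the shared fit (Tfrc up to 0.156, Alas1 up to 0.237, Hccs up to 0.175). With the young libraries alone Tfrc had an adjusted p of 2.1e-05 and kept it at 3.0e-04 or below whichever heart was left out, and Alas1 had 0.00101 and at most 0.00984.

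The rest of the iron and haem list, which was drawn up after these 3 were seen, moved both ways. Of its 38 tested genes 3 fell and none rose, and the median was -0.05. In it 4 genes were higher and 4 lower in KO without overlap, against 4.06% and 4.43% of all genes. Slc39a14, a metal importer, stood at -0.44 ± 0.13 (adjusted p = 0.18). Pearson's r of log2 CPM with Tfrc was highest for Rwdd4a (0.992), Atpsckmt (0.979), Hccs (0.978), Luzp1 (0.977) and Tent5b (0.975). This r was taken over the 8 young hearts, which share the split by genotype, so any gene that differs between the groups tends to score highly. Coenzyme Q, like haem a carrier of electrons, had 1 gene that fell among the 13 of a list also drawn up afterwards: Pdss1, a subunit of the enzyme that makes its side chain, went from between 26.6 and 31.6 CPM in WT to between 17.1 and 19.9 CPM in KO (log2 fold change -0.66 ± 0.12, adjusted p = 0.0321; young libraries alone 0.00353). Pdss1 had fractional counts in 7 of 16 libraries. Coq10b (-0.34) and Coq4 (0.36) did not overlap between the groups but lay in opposite directions and did not pass (adjusted p = 0.0862 and 0.164; Coq10b 0.0465 in the young libraries alone).

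Oxygen sensing was represented by Egln3, a prolyl hydroxylase that marks hypoxia-inducible factors for destruction and is itself induced by them. It stood at 49.3, 44.2, 48.1 and 63.4 CPM in KO and 88.5, 84.1, 82.8 and 82.5 CPM in WT, without overlap, and fell (log2 fold change -0.72 ± 0.11, adjusted p = 0.0109). Without KO 27, KO 31 or KO 38 its adjusted p rose to at most 0.0649, and with the young libraries alone it stayed at 0.0186 or below with any 1 heart left out. It was the only one of 25 angiogenic and hypoxia genes to pass (2 in DESeq2). The list's median was -0.03, and 4 members were lower in KO without overlap, against 4.43% of all genes. Among these 4 were Pgf (-0.51), a growth factor of vessels, and Bnip3 (-0.29), a mitophagy receptor. The VEGF receptor gene Flt1 stood at -0.31 with overlap.

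Sequences before the starts of Egln3 and Tfrc are shown because both genes fell and both are known to respond to low oxygen. Capitals mark matches to ACGTG, the core of the site bound by hypoxia-inducible factors, on either strand. They are RefSeq sequences on GRCm38.p6, written 5′ to 3′ along the gene. The Egln3 run holds the 250 bases before its start (chr12:54203875-54204124, minus strand). The Tfrc run holds 30 bases around the match (chr16:32608882-32608911, plus strand), which lies before the second of its 2 listed starts.
Egln3: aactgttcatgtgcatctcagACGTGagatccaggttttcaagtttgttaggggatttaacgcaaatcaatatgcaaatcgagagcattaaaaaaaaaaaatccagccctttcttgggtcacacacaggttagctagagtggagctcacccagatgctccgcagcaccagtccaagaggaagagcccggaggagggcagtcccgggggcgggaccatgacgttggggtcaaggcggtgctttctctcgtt
Tfrc: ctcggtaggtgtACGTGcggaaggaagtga
The 5 letters occur in 16.6% of all 32851 such windows. Of the 43 changed genes 38 matched to at least 1 window, and 11 of the 38 held the motif, against 24.7% of the 10631 tested genes with a window. The E-box CACGTG, which contains these letters, occurs in 6.02% of windows, in 9.77% of tested genes and in 5 of the 38 changed genes. Other motifs were searched on both strands and are given by their share of windows, then of tested genes, then their count among the 38. These were the antioxidant core TGACNNNGC (10.2%, 14% and 7 genes), the cAMP element TGACGTCA (1.55%, 2.86% and 2 genes), the D-box TTANGTAA (2.06%, 1.66% and no gene), the TATA box TATAAA (12.4%, 8.26% and 7 genes) and a glucocorticoid element GNACANNNTGTNC (0.387%, 0.376% and no gene). A match describes letters, and no match says only that they are not in these 250 bases.

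Ednra, the endothelin receptor that constricts vessels, stood at 38.2, 31.1, 45.3 and 43.2 CPM in KO and 56.0, 55.2, 65.2 and 66.4 CPM in WT, without overlap (log2 fold change -0.62 ± 0.10, adjusted p = 0.0192; lost without KO 27, KO 31, WT 39 or WT 42, at most 0.0985). Agt, angiotensinogen, the precursor of angiotensin, stood at 2.61, 3.62, 3.38 and 1.83 CPM in KO and 20.3, 5.95, 9.73 and 6.29 CPM in WT (log2 fold change -1.88 ± 0.32, adjusted p = 0.024). WT 29 was far above the other WT hearts, yet the lowest WT heart was above every KO heart, and the adjusted p without 1 heart reached 0.0985. They were the 2 of 25 natriuretic, adrenergic and renin-angiotensin genes to pass, and that list's median was -0.03; the adenosine receptor gene Adora1 stood at -0.38 ± 0.15 with overlap. The somatostatin receptor Sstr3 fell from between 6.19 and 7.80 CPM in WT to between 3.03 and 4.84 CPM in KO (log2 fold change -0.91 ± 0.17, adjusted p = 0.0393), and Tac1, the precursor of substance P, fell from between 2.25 and 4.45 CPM in WT to between 1.42 and 1.81 CPM in KO (log2 fold change -1.20 ± 0.23, adjusted p = 0.0393). Gpr22, an orphan receptor of heart muscle, stood at 57.2, 60.2, 62.5 and 54.2 CPM in KO and 86.2, 93.7, 124 and 94.9 CPM in WT and fell (log2 fold change -0.77 ± 0.15, adjusted p = 0.0393; young libraries alone 0.00353). Rtn4r, the receptor for the axon growth inhibitor Nogo, fell from between 10.2 and 13.8 CPM in WT to between 1.81 and 7.84 CPM in KO, with KO 53 the highest KO heart (log2 fold change -1.64 ± 0.33, adjusted p = 0.0425; fractional counts in 12 of 16 libraries). The semaphorin receptor Plxna2 fell by 0.54 on the log2 scale (adjusted p = 0.0393).

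**Figure D3:**
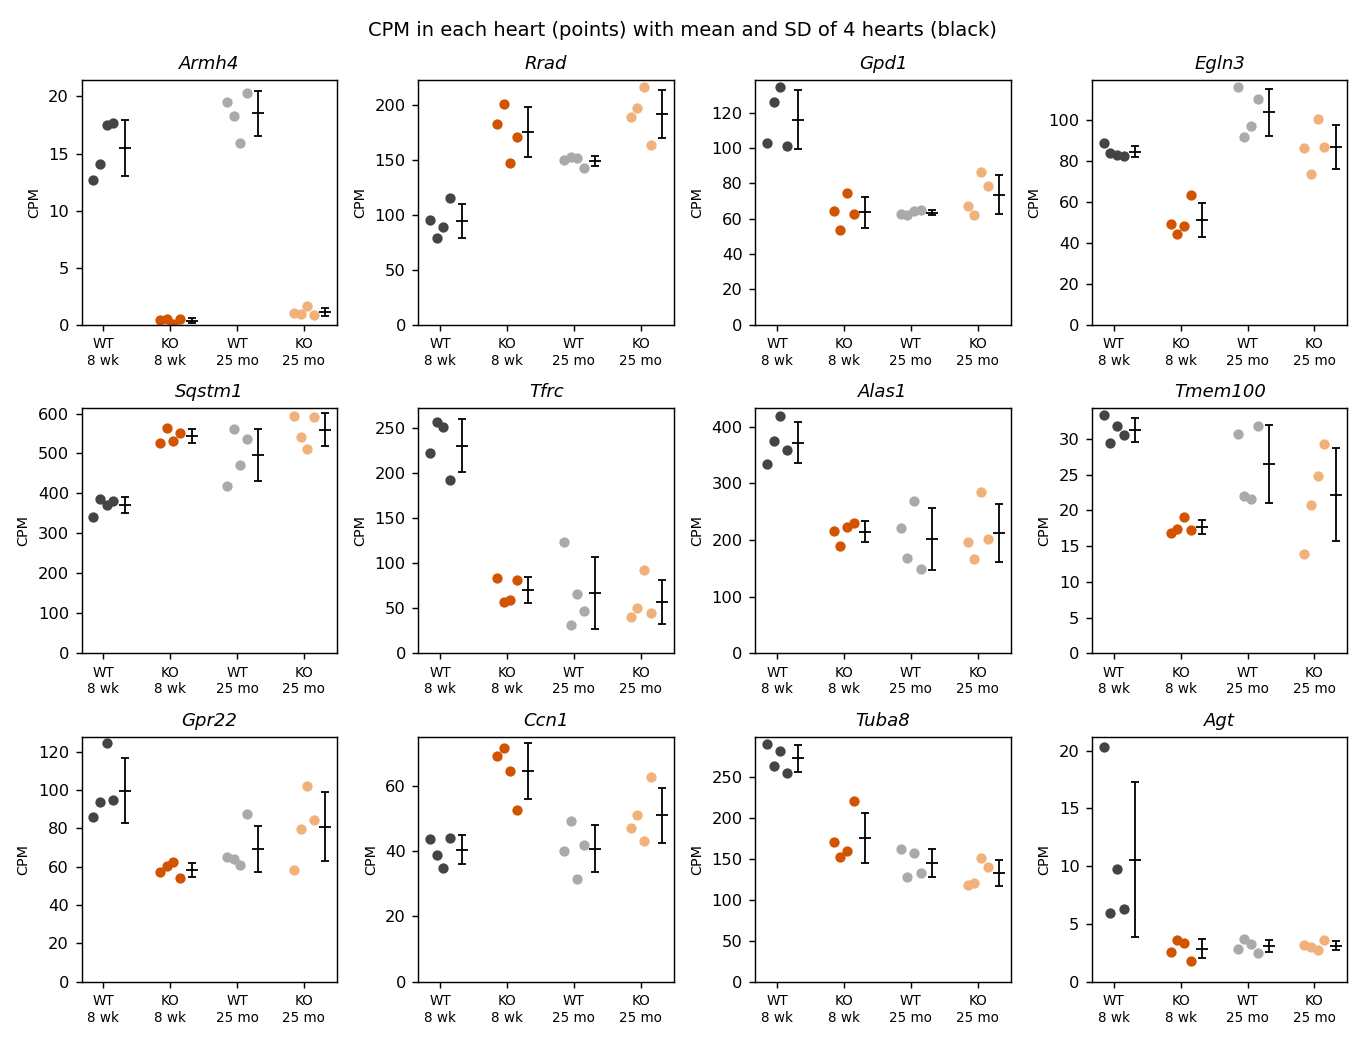
CPM of 12 genes in each heart (points), with the mean and SD of 4 hearts in black, for WT and KO at 8 weeks (dark) and at 25 months (pale). At 8 weeks the KO and WT points do not overlap in any panel, and Agt shows 1 WT heart at 20.3 CPM against 9.73 CPM or less in the other WT hearts.

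Tmem100, Adamts9, Timp3, Fbln2 and Alpl, expressed by cells of vessels, matrix or both, were lower in KO. Tmem100, an endothelial membrane protein induced by BMP9 and BMP10 signalling, stood at 16.8, 17.4, 19.1 and 17.3 CPM in KO and 33.3, 29.4, 31.8 and 30.5 CPM in WT. The 4 hearts of each group lay close together, and the gene fell (log2 fold change -0.83 ± 0.17, adjusted p = 0.0497; young libraries alone 2.4e-04, at most 0.0026 with 1 heart left out). Adamts9, a secreted protease that cuts versican, fell from between 33.1 and 40.9 CPM in WT to between 22.8 and 29.6 CPM in KO (log2 fold change -0.55 ± 0.09, adjusted p = 0.024), and Timp3, an inhibitor of matrix proteases, from between 447 and 579 CPM in WT to between 315 and 414 CPM in KO (log2 fold change -0.46 ± 0.10, adjusted p = 0.0497). Fbln2, a glycoprotein of elastic fibres and vessel walls, fell from between 132 and 156 CPM in WT to between 98.7 and 120.5 CPM in KO (log2 fold change -0.40 ± 0.08, adjusted p = 0.0497), and Alpl, the tissue-nonspecific alkaline phosphatase, from between 53.3 and 62.4 CPM in WT to between 31.9 and 39.9 CPM in KO (log2 fold change -0.66 ± 0.12, adjusted p = 0.0248). Alpl kept its call in the young libraries alone with any heart left out (at most 0.0162), while Fbln2 and Timp3 reached 0.133 and 0.154 there.

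Fbln2 was the only one of 39 matrix genes to pass. The list had a median of -0.16 with 3 of 39 above 0, against 51.2% of all genes. Its summed level was 6112, 5382, 5405 and 4754 CPM in KO and 6268, 6299, 5389 and 5928 CPM in WT, with overlap. Col6a2 stood at -0.27 ± 0.11 and Col5a1 at -0.24 ± 0.10, with overlap. Of 15 fibroblast markers none passed in edgeR or DESeq2 (1 at an unadjusted p under 0.05; median -0.09). Of 16 smooth muscle and pericyte markers none passed in edgeR or DESeq2, and the median was -0.17. At an unadjusted p under 0.05 were 5, all lower in KO, against 11.2% of all genes in both directions together. Acta2 (-0.93 ± 0.29), Lmod1 (-0.80 ± 0.30), Mylk (-0.35 ± 0.15) and Myh11 (-0.75 ± 0.33) led them. The markers' summed level was 3801 to 4158 CPM in KO and 4141 to 4462 CPM in WT, highest in WT 29, and its part in the falls of Ednra and the matrix genes was not tested. In bulk tissue, fewer cells of a type and less RNA per cell cannot be told apart. Endothelial markers had a median of 0.00 over 24 genes, none past edgeR's test (1 in DESeq2). Of the 24, 4 had an unadjusted p under 0.05, against 11.2% of all genes. Aplnr, the apelin receptor, stood at 0.94 ± 0.28 and Cldn5, a tight junction protein, at 0.68 ± 0.23, both with overlap. Aplnr passed in the young libraries alone (adjusted p = 0.0485, at most 0.126 with 1 heart left out).

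Tubulins, the subunits of microtubules, were lower in KO, and 3 of them passed. Tuba8, the form typical of muscle, stood at 170.5, 153, 159 and 219.7 CPM in KO and 289.9, 263, 281 and 254 CPM in WT and fell (log2 fold change -0.63 ± 0.11, adjusted p = 0.0319). Tuba1c (log2 fold change -0.61 ± 0.13, adjusted p = 0.0497) and Tubb2a (log2 fold change -0.47 ± 0.10, adjusted p = 0.0485) fell too, but both had fractional counts in all 16 libraries, where reads of similar tubulins could be split, so their values are less certain. Tubb4b and Tubb6, whose counts were whole, did not overlap between the groups and stood at -0.53 ± 0.11 and -0.45 ± 0.10 (adjusted p = 0.057 and 0.0779). Tubb4b (adjusted p = 0.0286) and Tuba4a (adjusted p = 0.0376; fractional counts in all 16 libraries) passed too in the young libraries alone, each lost in 7 of 8 fits without 1 heart. All 16 tubulin genes lay below 0, with a median of -0.31 and 3 past the test. Of the 16, 6 were lower without overlap, against 4.43% of all genes. KO 53 was the highest KO heart for Tuba8, Tuba1c, Tubb2a, Tubb4b and Tubb6. This list was made after the 3 falls had been seen, so its shared direction describes these hearts and supports nothing further.

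The 8 rises included the autophagy receptor Sqstm1 (p62), which also frees the antioxidant factor NRF2 from its inhibitor. Sqstm1 stood at 526, 563, 532 and 551 CPM in KO and 342, 385, 372 and 382 CPM in WT. The lowest KO heart was well above the highest WT heart, and Sqstm1 rose (log2 fold change 0.55 ± 0.09, adjusted p = 0.0136; at most 0.0682 without 1 heart in the shared fit and 0.0125 in the young libraries alone). Tkt, transketolase of the pentose phosphate pathway, stood at 33.3, 43.0, 31.6 and 34.3 CPM in KO and 27.8, 24.8, 22.5 and 27.1 CPM in WT, highest in KO 31 (log2 fold change 0.48 ± 0.10, adjusted p = 0.0427). With the young libraries alone its adjusted p was 0.0541. Sqstm1 and Tkt were the 2 of 37 antioxidant and NRF2-type genes to pass (4 in DESeq2). The list's median was 0.05, and 4 members were higher and 1 lower in KO without overlap, against 4.06% and 4.43% of all genes. Gstm2, a glutathione transferase, stood at 0.31 ± 0.08 and Nfe2l2, which encodes NRF2, at -0.22 ± 0.07, both without overlap (adjusted p = 0.137 and 0.207). Of 45 lysosome and autophagy genes, 31 lay above 0 with a median of 0.04, and Sqstm1 alone passed; Hexa, a lysosomal hexosaminidase, stood at 0.21 ± 0.07 and Gabarapl1, an autophagosome protein, at 0.27 ± 0.10, both without overlap, while the lysosomal channel gene Mcoln1 stood at 0.28 ± 0.11 with overlap.

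Ccn1, a matricellular protein induced by stretch and growth factors, stood at 69.3, 71.7, 64.5 and 52.6 CPM in KO and 43.9, 38.9, 35.0 and 44.1 CPM in WT and rose (log2 fold change 0.67 ± 0.13, adjusted p = 0.0425; young libraries alone 0.00945). It stands in the lists of TGF-beta signalling and of immediate early genes. In the first of these, with 20 genes and a median of -0.07, it was the only call, while Skil and Smad6 were lower without overlap (-0.37 and -0.43; adjusted p = 0.225 and 0.298). Skil passed in the young libraries alone (adjusted p = 0.0485), with at most 0.157 when 1 heart was left out. Among 29 immediate early and stress-response factors, the small MAF factor Maff fell from between 11.4 and 13.7 CPM in WT to between 7.99 and 9.82 CPM in KO (log2 fold change -0.53 ± 0.11, adjusted p = 0.0497), and Csrnp1 (-0.48) and Klf4 (-0.40) were lower without overlap and did not pass.

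The other 4 rises were in Sox4, Cdh4, Htatip2 and Asb14. The transcription factor Sox4 stood at 22.3, 30.4, 19.2 and 17.4 CPM in KO and 11.1, 14.6, 11.7 and 14.1 CPM in WT (log2 fold change 0.79 ± 0.17, adjusted p = 0.0497), and the adhesion molecule Cdh4 (R-cadherin) at 14.6, 10.7, 11.8 and 13.3 CPM and 7.08, 7.72, 7.41 and 7.97 CPM (log2 fold change 0.74 ± 0.16, adjusted p = 0.0497). Htatip2 rose from between 17.5 and 20.4 CPM in WT to between 24.7 and 29.2 CPM in KO (log2 fold change 0.48 ± 0.10, adjusted p = 0.0425). Asb14, a substrate receptor of a muscle ubiquitin ligase, rose from between 89.8 and 108 CPM in WT to between 123 and 138 CPM in KO (log2 fold change 0.37 ± 0.08, adjusted p = 0.0497) and was the only one of 17 muscle ubiquitin ligase and atrophy genes to pass (2 in DESeq2). In that list Trim63 stood at 0.30 ± 0.08, without overlap, Fbxo32 at 0.36 ± 0.14 and Fbxl22 at -0.42 ± 0.13. With the young libraries alone and 1 heart left out, Sox4, Htatip2 and Asb14 reached 0.0884, 0.068 and 0.118, and Cdh4 at most 0.0398.

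Hspa5 (BiP), the main chaperone of the endoplasmic reticulum, which also holds its stress sensors inactive, fell. It stood at 654, 594, 688 and 733 CPM in KO and 831, 854, 953 and 859 CPM in WT, without overlap (log2 fold change -0.39 ± 0.07, adjusted p = 0.0393; fractional counts in 15 of 16 libraries). It was the only one of 23 unfolded protein response genes to pass (2 in DESeq2), in a list with a median of -0.14. In that list 3 members lay above 0, against 51.2% of all genes, and 5 were lower without overlap, against 4.43%. Pdia3 (-0.28 ± 0.08), a disulfide isomerase, the secreted factor Manf (-0.39 ± 0.11), the co-chaperone Dnajb9 (-0.25 ± 0.09) and Hsp90b1 (-0.22 ± 0.08), GRP94, did not pass (adjusted p = 0.144, 0.148, 0.292 and 0.32). The fall of Hspa5 was lost in 7 of 8 fits without 1 heart (at most 0.167).

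Sequences before the starts of Hspa5 and Hsp90b1 are shown because these genes share the ER stress element, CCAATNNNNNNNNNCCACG, marked in capitals on either strand. Hsp90b1 falls outside the rule for naming genes and was picked for its matches. Both runs are RefSeq sequences on GRCm38.p6, 5′ to 3′ along the gene. The Hspa5 run holds 30 bases around its match, from 72 to 43 bases before the start (chr2:34772018-34772047, plus strand), and the Hsp90b1 run holds 185 bases with 2 matches, from 250 to 66 bases before the start (chr10:86705510-86705694, minus strand).
Hspa5: gacttcaCCAATCGGAGGCCTCCACGacgg
Hsp90b1: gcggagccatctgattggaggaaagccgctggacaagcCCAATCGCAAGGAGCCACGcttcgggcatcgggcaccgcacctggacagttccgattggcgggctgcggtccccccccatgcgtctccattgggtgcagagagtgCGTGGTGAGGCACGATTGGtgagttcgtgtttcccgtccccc
The element occurs in 0.113% of all 32851 windows and in 0.16% of the 10631 tested genes with a window. It occurs in 8 of the 20 unfolded protein response genes that have a window. Among the 38 changed genes with a window, Hspa5 alone holds it.

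Glucocorticoid-responsive genes, 19 of them tested, had a lower summed level in 3 KO hearts than in any WT heart, while KO 38 lay within the WT range. It was 1124, 1041, 1480 and 1107 CPM in KO 27, 31, 38 and 53 and 1367, 1246, 1522 and 1563 CPM in the WT hearts. Fkbp5, a co-chaperone of the glucocorticoid receptor and one of its targets, stood at 14.9, 13.7, 33.0 and 21.0 CPM in KO and 41.4, 36.8, 42.3 and 55.9 CPM in WT. KO 38 came close to the WT hearts, and the gene fell (log2 fold change -1.09 ± 0.23, adjusted p = 0.0497; at most 0.211 without 1 heart). It was the only one of 19 glucocorticoid-responsive genes to pass (2 in DESeq2), with a list median of -0.25 and 3 of 19 above 0. Map3k6 (-0.78 ± 0.21), Zbtb16 (-1.26 ± 0.40) and the cell cycle inhibitor Cdkn1a (-0.70 ± 0.25) overlapped between the groups.

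The circadian clock genes differed in value in both directions. Noct, nocturnin, a rhythmic phosphatase of NADP(H), stood at 43.0, 46.1, 64.2 and 67.8 CPM in KO and 90.3, 83.4, 117 and 95.8 CPM in WT and fell (log2 fold change -0.80 ± 0.15, adjusted p = 0.0393); it is not in the clock list. None of the 22 clock genes passed in edgeR (1 in DESeq2), and 9 had an unadjusted p under 0.05, against 11.2% of all genes. Without overlap 3 were lower and 2 higher in KO, against 4.43% and 4.06% of all genes. The list's median was -0.08. The 3 lower genes each encode a repressor of the clock, though other repressors in the list overlapped. Per2 stood at 35.6, 34.5, 49.0 and 46.9 CPM in KO and 69.4, 60.2, 60.5 and 68.9 CPM in WT (-0.64 ± 0.15, adjusted p = 0.0902), Ciart at -0.67 ± 0.25 and Cry1 at -0.40 ± 0.12. Per2 and Ciart passed in the young libraries alone (adjusted p = 0.012 and 0.00513); with 1 heart left out they reached 0.0534 and 0.0291. Ciart stood at 18.3, 20.9, 23.9 and 26.3 CPM in KO and 36.1, 35.8, 35.5 and 34.7 CPM in WT. The activator gene Npas2 was 1 of the 2 higher ones, at 4.54, 2.72, 2.72 and 2.50 CPM in KO and 1.29, 2.01, 1.98 and 1.51 CPM in WT (0.87 ± 0.28, adjusted p = 0.248). The sources used here do not give the hour of dissection, and its part in these values, and in Noct, Fkbp5 and Alas1, whose levels are known to vary over the day in mice, was not tested.

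**Figure D4:**
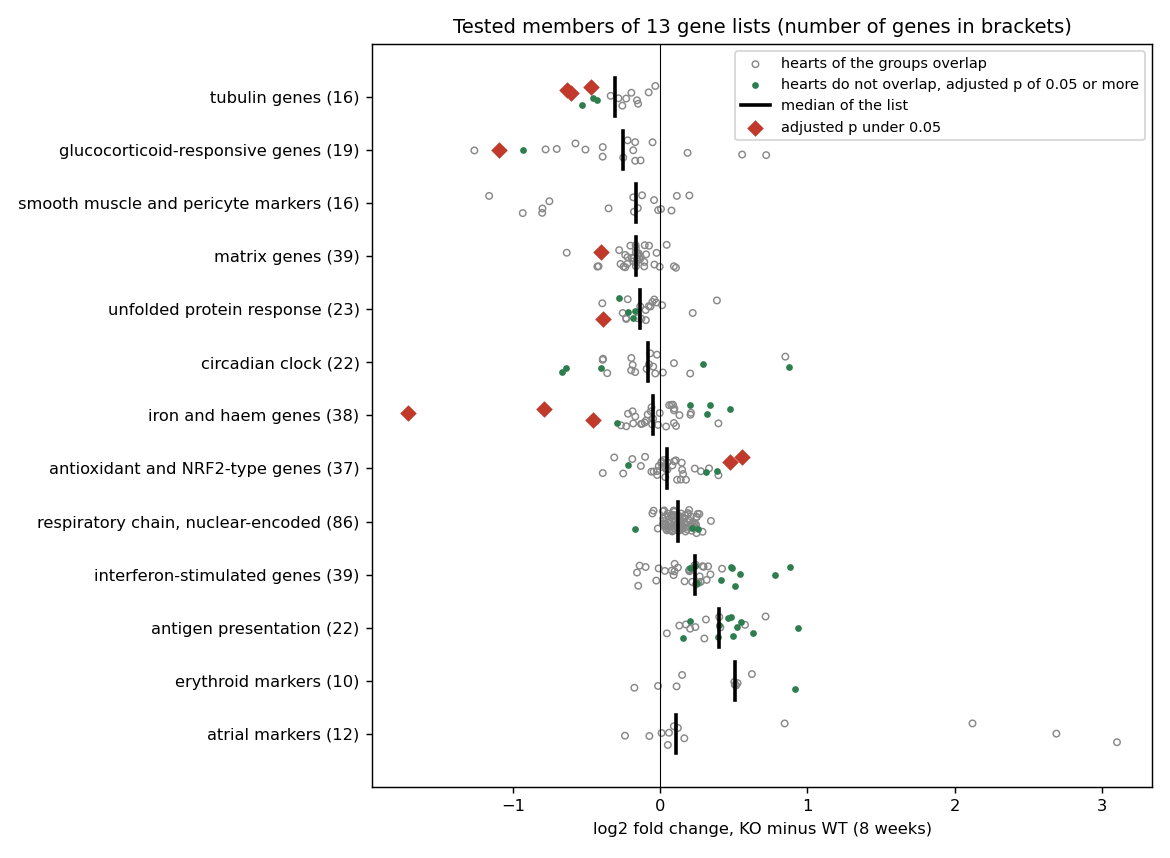
Log2 fold changes at 8 weeks (x axis) of the tested members of 13 gene lists (rows, number of genes in brackets): red diamonds passed the test, filled green points did not overlap between the groups without passing, open points overlapped, and the black bar is the list's median. The tubulins lie below 0 in full, most interferon and antigen presentation genes above 0, and the atrial list has 3 members beyond 2.

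In the lists of the 2 pathways tied to ARMH4, Armh4 itself was the only gene past edgeR's test at the RNA level. Of 25 genes in the list of Armh4 and the mTOR complexes, Armh4 alone passed (1 in DESeq2 too), and the median was -0.06. Prr5, a subunit of the complex with RICTOR, stood at 4.12, 4.36, 3.88 and 3.25 CPM in KO and 5.79, 6.11, 5.68 and 6.21 CPM in WT, without overlap (-0.61 ± 0.15, adjusted p = 0.0941). Mapkap1 (-0.16 ± 0.07), another subunit, overlapped. Rictor, named for its reported binding and not by its rank, stood at -0.03 ± 0.09 (unadjusted p = 0.736).

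Of 25 genes of the interleukin-6 family and STAT3 pathway none passed in edgeR (1 in DESeq2), and the median was 0.06. At an unadjusted p under 0.05 were 4 of the 25, against 11.2% of all genes. The kinase Jak1 (0.34 ± 0.10; fractional counts in all 16 libraries) and Pim1 (0.40 ± 0.15), a kinase gene that STAT3 induces, were higher without overlap. Stat3 itself stood at 169, 128, 178 and 160.4 CPM in KO and 191, 212, 197 and 199 CPM in WT (-0.33 ± 0.12, adjusted p = 0.321), lower without overlap, and the phosphatase gene Ptpn11 at -0.31 ± 0.11. Il6st, the co-receptor itself and likewise named for its reported binding, stood at 0.09 ± 0.09 (unadjusted p = 0.315). Phosphorylation of STAT3, AKT or mTOR was not measured in these libraries.

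Interferon and antigen presentation genes were higher in value in KO, with none past the test in all libraries and a few past it in the young libraries alone. All 22 antigen presentation genes lay above 0, with a median of 0.40, and 11 of 22 were higher in every KO heart than in any WT heart, against 4.06% of all genes. None passed in edgeR or DESeq2, and 2 had an unadjusted p under 0.05, against 11.2% of all genes. H2-Q7 stood at 10.3, 11.8, 11.3 and 11.2 CPM in KO and 2.98, 5.71, 5.08 and 9.56 CPM in WT (0.94 ± 0.32, adjusted p = 0.286) and H2-Q6 at 0.72 ± 0.25; both belong to a family of near-identical genes and had fractional counts. Psmb8, an immunoproteasome subunit with whole counts, stood at 18.9, 20.7, 15.7 and 20.3 CPM in KO and 12.9, 11.7, 11.9 and 15.1 CPM in WT (0.55 ± 0.28, adjusted p = 0.478). Of 39 interferon-stimulated genes, 33 lay above 0 with a median of 0.24, and 10 were higher without overlap. None of the 39 passed in edgeR or DESeq2. At an unadjusted p under 0.05 were 3, against 11.2% of all genes: Rsad2 (0.48 ± 0.14), Gbp5 (0.54 ± 0.17) and Gbp2 (0.34 ± 0.16). 

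In the young libraries alone 6 of the 22 antigen presentation genes passed, all higher in KO, against 0.217% of all genes. Of these, H2-Eb1, H2-Aa and H2-Ab1 encode chains of MHC class II, Cd74 its invariant chain, Tap1 a peptide transporter and Psmb8 a proteasome subunit; they were picked for this after their values were seen. H2-Eb1 stood at 46.1, 55.4, 53.6 and 53.8 CPM in KO and 34.8, 36.6, 34.5 and 39.7 CPM in WT (0.52 ± 0.29; adjusted p = 0.515 in all libraries and 0.00901 in the young ones). Tap1 stood at 18.5, 18.5, 16.8 and 17.3 CPM in KO and 11.3, 10.8, 11.5 and 12.4 CPM in WT (0.63 ± 0.36; 0.534 and 0.00746). Both passed in the young libraries whichever heart was left out (at most 0.0291 and 0.0291), while H2-Aa, H2-Ab1, Cd74 and Psmb8 reached 0.107, 0.125, 0.103 and 0.132. Of the 39 interferon-stimulated genes Iigp1, Igtp and Irgm1 passed there, all GTPases induced by interferon-gamma. Iigp1 stood at 85.7, 94.5, 101 and 84.2 CPM in KO and 39.4, 48.2, 43.7 and 67.2 CPM in WT (adjusted p = 0.00819, at most 0.0291 with 1 heart left out), and Igtp and Irgm1 reached 0.119 and 0.14. The aged WT hearts, which enter the spread of the shared fit, differed widely in these genes: Cd74 stood at 187, 416, 373 and 99.3 CPM in them, against 105, 127, 129.8 and 137 CPM in young KO and 90.4, 93.6, 75.8 and 98.4 CPM in young WT. The summed level of the 22 antigen presentation genes was 1332 to 1686 CPM in KO and 1069 to 1356 CPM in WT, and only KO 38 lay below the highest WT heart, WT 42. The macrophage markers, from cells that carry MHC class II, summed to 418 to 518 CPM in KO and 365 to 518 CPM in WT, and their part in these values was not tested.

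Markers of blood cells, atrium and immune cells differed between single hearts. The 10 erythroid genes had a median of 0.51, with none past edgeR or DESeq2 and 3 at an unadjusted p under 0.05; Hba-a2 stood at 0.51 ± 0.21 and Hbb-bt at 0.62 ± 0.27, and the summed level was 837 to 1292 CPM in KO and 761 to 899.8 CPM in WT. The atrial genes Sln, Myl7 and Myl4 stood at 3.10 ± 1.27, 2.69 ± 1.08 and 2.12 ± 0.87, with overlap. Sln was at 1.34, 0, 19.6 and 3.5 CPM in KO and 0.241, 1.05, 0 and 1.51 CPM in WT, so KO 38 held the most atrial RNA and KO 31 and WT 39 had no Sln count. The 12 atrial genes summed to 472 to 957 CPM in KO and 497 to 694 CPM in WT, with none past edgeR or DESeq2. With the mean atrial level as a covariate 7 genes passed, 6 of them among the 43, and with the erythroid level 33 passed, 24 among the 43. Of 20 macrophage markers none passed in edgeR (1 in DESeq2, 5 at an unadjusted p under 0.05; median 0.04); Lyve1, of resident macrophages and lymphatic vessels, stood at -0.70 ± 0.20 and Cx3cr1 at 0.82 ± 0.29, both without overlap; Lyve1 passed in the young libraries alone (adjusted p = 0.0219, at most 0.0773 with 1 heart left out). In the cell cycle list, none of 36 genes passed in edgeR or DESeq2 and 5 had an unadjusted p under 0.05, all higher, led by the replication helicase genes Mcm7 (0.40 ± 0.11) and Mcm2 (0.47 ± 0.15). The sarcomere and Z-disc list had none of 31 genes past edgeR (1 in DESeq2, 2 at an unadjusted p under 0.05), with Pdlim5 at -0.46 ± 0.11 and cardiac actin Actc1 at -0.31 ± 0.11, both lower without overlap; Pdlim5 passed in the young libraries alone (adjusted p = 0.012, at most 0.0568).

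Of the remaining lists, 18 in all, none held a gene past edgeR's test apart from the adipocyte markers, where Cidea is listed too. Heat shock proteins and co-chaperones had a median of -0.10 over 30 genes, with 6 at an unadjusted p under 0.05, all lower in KO, and none past DESeq2. Cytosolic ribosomal proteins had a median of 0.07 with 64 of 76 above 0, and the proteasome 0.09 with 30 of 35 above 0. Chemokines and cytokines stood at 0.13 over 24 genes, hypertrophy regulators at 0.01 over 29, cholesterol synthesis and uptake at 0.03 over 25, ATF4 targets at -0.07 over 23 and complement at 0.00 over 20. Monocyte and neutrophil markers stood at 0.71 over 10 genes, with 8 above 0. They summed to 10.1, 12.2, 7.68 and 7.5 CPM in KO and 8.85, 8.04, 5.34 and 6.46 CPM in WT, with overlap. T, B and NK cell markers stood at 0.19 over 5 genes, all above 0 and all with overlap. In the list of fetal and skeletal isoforms, skeletal actin Acta1 stood at -0.95 ± 0.34 with overlap (adjusted p = 0.307). Mitochondrially encoded genes did not enter the test.

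Beyond the 43, 17 genes passed in the young libraries alone whichever heart was left out, Ciart, Tap1, Iigp1, H2-Eb1, Hk1 and Zfp970 among them. Those described next were chosen after their values were seen. Mlxipl, the carbohydrate-sensing transcription factor ChREBP, stood at 45.98, 45.77, 44.48 and 42.78 CPM in KO and 34.04, 33.15, 29.28 and 34.15 CPM in WT (adjusted p = 0.012), higher in each KO heart. Kcnv2, a modifying subunit of potassium channels, stood at 20.6, 23.9, 24.3 and 21.3 CPM in KO and 13.3, 14.4, 13.3 and 16.8 CPM in WT (adjusted p = 0.00984), higher as well. Lower in each KO heart were Fhl1, a LIM-domain protein of the sarcomere, at 140.5, 114.3, 136.9 and 133.9 CPM against 208, 196.6, 188.7 and 170.7 CPM (adjusted p = 0.00901), the receptor tyrosine kinase gene Ret at 9.331, 9.55, 8.995 and 9.09 CPM against 15.29, 13.27, 13.61 and 15.86 CPM (adjusted p = 0.00901) and Tent5b, a poly(A) polymerase, at 0.504, 0.247, 0.495 and 0.5 CPM against 1.45, 1.85, 2.15 and 1.34 CPM (adjusted p = 0.012). In the fit of all libraries their adjusted p-values were 0.057, 0.116, 0.0862, 0.225 and 0.057. Tent5b, at 0.504 CPM or less in every KO heart, rests on low counts.

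Some falls lie in genes whose reads are hard to assign. Zfp971 and Gm14440, zinc finger genes of 1 cluster of near-identical copies, fell (log2 fold change -0.41 ± 0.08, adjusted p = 0.0497, and log2 fold change -0.65 ± 0.14, adjusted p = 0.0497), and Zfp970 beside them stood at -0.61 ± 0.13 (adjusted p = 0.0544; 0.012 in the young libraries alone). All 3 had fractional counts in all 16 libraries. Of 27 tested genes of the cluster, listed after the 2 calls were seen, 25 lay at or below 0. Without overlap 8 of the 27 were lower, against 4.43% of all genes. Zbed6, a transcription factor derived from a transposon, fell from between 3.70 and 5.96 CPM in WT to between 1.92 and 2.86 CPM in KO (log2 fold change -1.15 ± 0.22, adjusted p = 0.0393), and its exons overlap those of Zc3h11a on the same strand. Of the 43 genes, 13 have exons on the opposite strand of another annotated gene, Rrad, Gpd1, Sqstm1, Alas1, Hccs and Timp3 among them, and the sources used here do not give whether counting used strand. The remaining falls were in Sh3kbp1 (-0.57), an adaptor of receptor uptake, Hecw2 (-0.58), a ubiquitin ligase, Man2a1 (-0.54), a Golgi mannosidase, and Dennd5b (-0.37; fractional counts in 5 libraries), with adjusted p of 0.0248, 0.0393, 0.0425 and 0.0497.

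Side by side with the hearts of 25 months, few of the changes at 8 weeks passed the test in the older KO hearts. At 25 months, where no library is shared with the young comparison, KO against WT called 149 genes (1.11%). Of the 43 genes changed at 8 weeks, 27 had the same sign in aged hearts and 2 passed there: Armh4 and Sstr3, the latter in the opposite direction (0.69 ± 0.16, adjusted p = 0.043). The test of the difference between the ages called 77 genes (0.576%), 8 of the 43 among them: Gpd1, Adamts9, Sstr3, Gpr22, Zbed6, Htatip2, Fbln2 and Timp3. For Gpd1 the knockout change was -0.87 ± 0.12 at 8 weeks and 0.21 ± 0.12 at 25 months, and the difference was -1.08 ± 0.16 (adjusted p = 0.00367). For Sstr3 it was -1.61 ± 0.24 (adjusted p = 0.0031) and for Adamts9 -0.73 ± 0.13 (adjusted p = 0.0127). Rrad was not shown to differ with age (0.36 ± 0.11 at 25 months, difference 0.53 ± 0.16, adjusted p = 0.153), nor was Tfrc (-0.23 ± 0.31, difference -1.48 ± 0.44, adjusted p = 0.148).

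The levels in all 4 groups show where these differences lie. Aged hearts are listed in order of animal number. Tfrc stood at 123, 31.4, 65.6 and 46.5 CPM in aged WT and 40.4, 49.9, 92.4 and 44.5 CPM in aged KO hearts, so the 4 young WT hearts were above all 12 others. Gpd1 stood at 62.5, 62.1, 64.2 and 64.8 CPM in aged WT and 67.0, 62.0, 86.6 and 78.4 CPM in aged KO hearts, and here too the young WT hearts were above the rest. Rrad stood at 149.9, 153, 152 and 143 CPM in aged WT and 189, 197, 216 and 164 CPM in aged KO hearts, all above the young WT hearts. Alas1, Tuba8, Noct, Alpl, Agt, Ednra, Adamts9, Sh3kbp1 and Pdss1 were highest in the 4 young WT hearts of all 16. So were Hspa5, Plxna2, Hccs, Rtn4r, Tubb2a and Tuba1c. Sqstm1, Tkt, Cdh4, Sox4 and Htatip2 were lowest in them. The remaining changed genes did not show this order, among them Armh4, Sstr3, Gpr22, Tac1, Hecw2, Zbed6, Man2a1, Ccn1, Tmem100, Fkbp5 and Timp3. In these the young WT hearts were not apart from all 12 others. Egln3 was another such gene. It stood at 116, 91.6, 96.9 and 110.2 CPM in aged WT and 86.4, 73.5, 100.3 and 86.8 CPM in aged KO hearts. The young KO hearts were its low group. Comparisons of young KO and of aged WT with young WT share the 4 young WT hearts, so no likeness between them is drawn from these levels.

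Ranked by size, the differences with age furthest above 0 were in interferon genes, none of which passed at 8 weeks in the same fit. Of the 77, 59 differences were above 0 and 18 below, and 60 of the 77 were called in aged hearts. The 5 largest above 0 were Igtp (4.81 ± 1.0), Iigp1 (3.69 ± 0.69), Irgm2 (3.58 ± 0.72), Tgtp2 (3.44 ± 0.50) and Cd274 (3.07 ± 0.57), the first 4 of them interferon-induced GTPases and the last the immune checkpoint ligand PD-L1. Igtp, for example, stood at 0.78 ± 0.72 at 8 weeks (adjusted p = 0.715) and at -4.03 ± 0.73 at 25 months (adjusted p = 0.00801). The interaction was called for 14 of 39 interferon-stimulated and 14 of 22 antigen presentation genes. The 5 largest below 0 were Sfrp5 (-3.27 ± 0.60), a secreted WNT inhibitor, Necab1 (-2.64 ± 0.44), Zbed6 (-1.64 ± 0.30), Sstr3 (-1.61 ± 0.24) and Gpd1 (-1.08 ± 0.16). With the erythroid level as a covariate 8 differences with age passed.

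**Figure D5:**
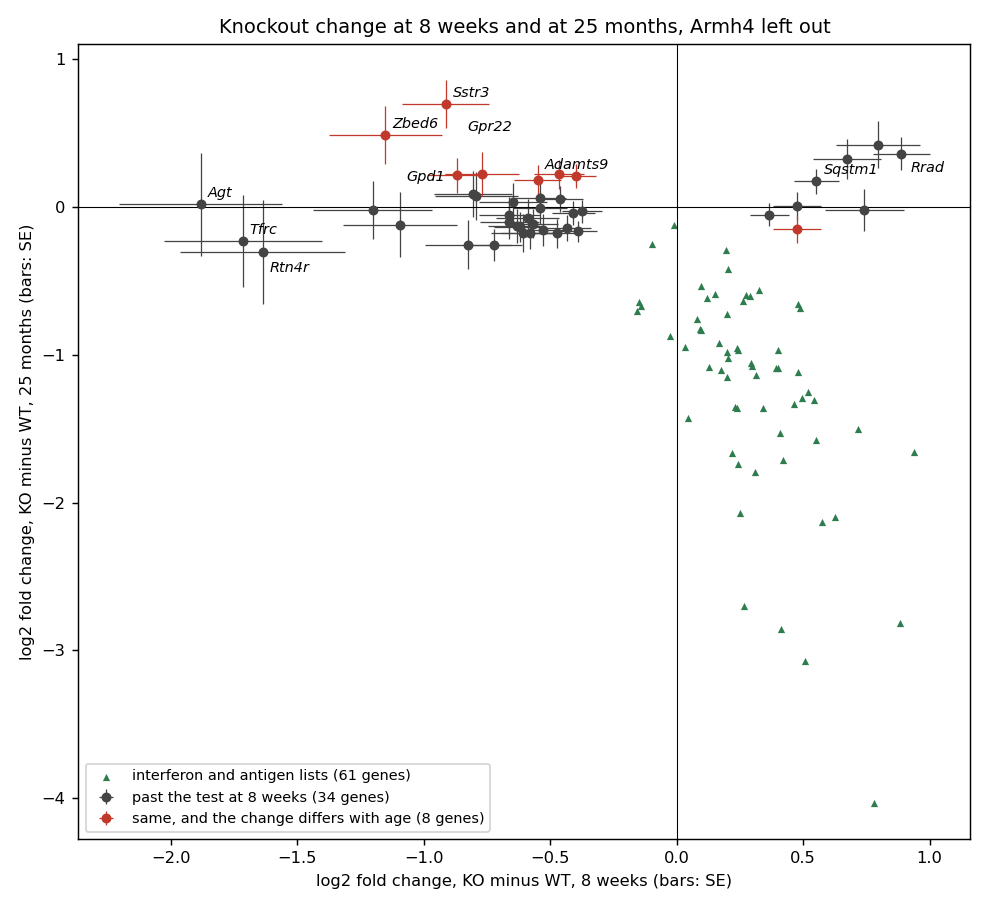
Log2 fold change of KO against WT at 8 weeks (x axis) and at 25 months (y axis), with standard errors, for the 42 genes other than Armh4 that passed at 8 weeks; red marks the 8 whose change differed with age. Green triangles are the 61 genes of the interferon and antigen presentation lists, 55 of which lie above 0 at 8 weeks and below 0 at 25 months.

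The genes whose log2 CPM ran most alike with Rrad and Gpd1 over the 8 young hearts were described by Pearson's r alone. For Rrad these were Tap1 (0.98), Psmb8 (0.976), Eif5b (0.974), Htatip2 (0.971) and Itm2b (0.97). For Gpd1 these were Dmxl1 (0.986), Tent5b (0.985), Stt3b (0.983), Mtif2 (0.982) and Rab6a (0.979). The 8 hearts share the split by genotype, so any gene that differs between the groups tends to score highly.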

How the data were processed

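RNA of whole hearts was extracted with Trizol and libraries were made and sequenced at BGI, per the labels' protocols. The authors deposited expected counts per gene and FPKM values (fragments scaled by gene length and library size) for 16 hearts. HISAT, Bowtie2 and the build GRCm39 are named without versions or roles in the submitters' processing notes, while the sources used here do not give the counting program or its strand setting. In the young libraries 9.57% to 10.2% of gene rows held a fractional count.

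Expected counts were rounded to whole numbers, genes with low counts were removed with filterByExpr, and all 16 libraries were fitted in 1 model with 4 groups in edgeR 4.0.16 (R 4.3.3), with TMM scaling and the quasi-likelihood F test on 12 residual degrees of freedom. Standard errors were derived from the fold change and its F value. CPM are counts per 1000000 of the TMM-adjusted library size. P-values were adjusted over the 13373 genes tested by the Benjamini-Hochberg method. The young libraries held 11858630 to 12725001 counts, and the number of hearts limits the precision more than the counts do for all but weakly expressed genes. The code was tested on simulated data. Alternatives used limma 3.58.1, DESeq2 1.42.0, other filters, the deposited FPKM with pseudocounts of 1 and 0.1, fewer libraries and marker covariates.

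The comparison, the gene lists and the tests were chosen with earlier results of these data known. The rule for naming genes took Armh4, the sex and substrain genes, up to 15 rises and 15 falls past the test with the largest change, up to 4 members of each list by unadjusted p, and the 5 largest differences with age in each direction. Genes past the test beyond the 15 largest falls, as well as Il6st, Rictor, Hsp90b1, Tuba4a, Tap1, Irgm1, Cd74, the class II genes, Mlxipl, Kcnv2, Fhl1, Ret and Tent5b, were named after their values were seen. Some genes that the rule takes are not reported here. The lists of iron and haem, tubulin, coenzyme Q and zinc finger genes were also made afterwards. Promoter sequences come from RefSeq on GRCm38.p6, and exon overlaps from GENCODE vM21, both of an older build than the counts.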

Additional observations from a re-analysis of the deposited data

Results flagged for a closer look

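In 20 of the 298 groups of 4 young hearts examined (6.71%), 1 heart lay far from the other 3 (a gap to the nearest heart above Dixon's 95% critical value). Chance alone gives this in about 1 of 20 groups. Among the KO hearts, heart 27 was apart for Hbb-bt (51.4 CPM), Hecw2 (19.7 CPM), Npas2 (4.54 CPM) and Skil (39.3 CPM). Heart 31 was apart for Adamts9 (29.6 CPM, the others 22.8 to 23.9), Ddx3y (96.1 CPM) and Tent5b (0.247 CPM). Heart 38 was apart for G0s2 (26.9 CPM), Maff (9.82 CPM) and Man2a1 (44 CPM), and heart 53 for Fbxl22 (81.2 CPM), Pgam1 (110 CPM), Tuba1c (43.9 CPM) and Tubb4b (265 CPM). For the 2 tubulins heart 53 was the KO heart nearest to WT. Among the WT hearts, heart 29 was apart for Pdia3 (233 CPM), Ptpn11 (313 CPM) and Zbed6 (3.7 CPM, the others 5.87 to 5.96), heart 39 for Gabarapl1 (89.6 CPM) and Slc25a20 (321 CPM), and heart 42 for Tgtp2 (31.3 CPM, the others 15.9 to 16.5). The low WT value of Zbed6 lies nearest to the KO hearts.

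For 25 named genes the difference between KO and WT was not the same at 8 weeks and at 25 months, by edgeR's test of the difference between the ages with adjusted p under 0.05. On the log2 scale, young minus aged, immune genes lay above 0: Igtp 4.81, Iigp1 3.69, Irgm2 3.58, Tgtp2 3.44, Cd274 3.07, Tap1 2.72, H2-Q7 2.59, H2-Q6 2.22, Psmb8 2.13, Gbp5 1.85, H2-Aa 1.79, Gbp2 1.70 and Rsad2 1.14. Gstm2 (0.62) and Htatip2 (0.63) lay above 0 as well. Below 0 lay Sfrp5 (-3.27), Necab1 (-2.64), Zbed6 (-1.64), Sstr3 (-1.61), Gpd1 (-1.08), Gpr22 (-0.99), and the matrix or vessel genes Col6a2 (-0.76), Adamts9 (-0.73), Timp3 (-0.69) and Fbln2 (-0.61). Part of these depend on single aged hearts, as given for the count of such genes in the next section.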

How the results depend on the processing

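The 43 changed genes (8 higher, 35 lower) became 27 (5 and 22) with a filter of at least 1 CPM in 4 libraries, 148 (44 and 104) in DESeq2, 20 (2 and 18) in limma-voom, 15 (3 and 12) on log2(FPKM + 1), 27 (3 higher) on log2(FPKM + 0.1), 113 (29 and 84) with the 8 young libraries only and 7 (2 and 5) with the atrial level as a covariate. The erythroid covariate left 5 higher. Without 1 heart the changed genes ranged from 3 to 21, those higher from 1 to 5 and those lower from 2 to 16. With the young libraries only, an addition made after the data were seen (as were robust dispersions), the changed, higher and lower genes were 63, 21 and 42 without KO 27, 51, 15 and 36 without KO 31, 139, 39 and 100 without KO 38, 75, 20 and 55 without KO 53, 98, 21 and 77 without WT 29, 52, 14 and 38 without WT 34, 69, 15 and 54 without WT 39, and 63, 20 and 43 without WT 42. The 77 differences with age became 218 in DESeq2, 45 in limma-voom, 51 on log2(FPKM + 0.1), 48 with the atrial and 8 with the erythroid covariate, and 39 to 179 without 1 heart (179 without the aged WT heart 12, 117 without aged WT 1, 48 or fewer without KO 27, KO 31, any young WT heart or 2 of the aged KO hearts). The cause of these shifts was not tested, except that fits without a heart hold fewer samples. No direction reversed. Among named genes at 8 weeks, 3278 results kept their side of the threshold, 535 lost it and 206 gained it. No paired analysis was possible because the groups share no animal numbers. Few hearts, and for Tac1, Agt, Zbed6, Tent5b and Armh4 in KO low counts, limit what can be resolved.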
